A study of Mus musculus with 8 samples.

Results

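The ligands, receptors and transcription factor of LIF and EGF signalling were followed from the mature egg to the implantation site: the cytokine Lif, its receptor chains Lifr and Il6st (gp130), the transcription factor Stat3, the EGF-family ligands Hbegf, Areg and Ereg, and the receptors Egfr, Erbb2 and Erbb3. All probe sets annotated to 1 of these 10 genes alone were taken, which gave 26 probe sets of 9 genes among the 45101 on the array. Areg was not analysed here. Polyadenylated mouse RNA was hybridised to 8 Affymetrix arrays. The connexin 43 (CX43, encoded by Gja1) KO and the WT were measured at 3 stages. For MII oocytes, which are eggs arrested at the second meiotic metaphase, there was 1 KO and 1 WT array. For blastocysts there were 2 KO and 2 WT arrays, and for implantation sites 1 KO and 1 WT array. The series title describes the depletion as directed to the oocyte and the blastocysts as derived from such mice. No label names the driver, the strain, the ages or how many animals or embryos were pooled per array. The implantation site samples are named as embryo in one label and as implantation site in another.

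LIF is a cytokine of the interleukin-6 family. It binds the LIF receptor, which pairs with gp130, and the pair activates JAK kinases that phosphorylate STAT3. In mice, LIF made by the uterine glands is required in the mother for blastocyst attachment. HB-EGF, amphiregulin and epiregulin are made as membrane-bound precursors and are ligands of the EGF receptor family. HB-EGF appears in the luminal epithelium around the blastocyst at attachment, and the trophectoderm carries EGF receptor. ERBB2 has no known ligand of its own and signals as a partner of the other receptors, and ERBB3, a neuregulin receptor with little kinase activity, signals through such partners.

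Promoter windows of RefSeq (GRCm38.p6, 250 bases before to 50 after a gene's start) were found for 6 of the genes, in 7 windows. Those of Lifr, Il6st and Egfr are shown because these receptor genes gave most of the stage differences below. Capitals mark GGGCGG, the GC box bound by SP1-type factors, and CCAAT, each on either strand (CCGCCC and ATTGG when reversed).

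Lifr, chr15:7129322-7129621, plus strand: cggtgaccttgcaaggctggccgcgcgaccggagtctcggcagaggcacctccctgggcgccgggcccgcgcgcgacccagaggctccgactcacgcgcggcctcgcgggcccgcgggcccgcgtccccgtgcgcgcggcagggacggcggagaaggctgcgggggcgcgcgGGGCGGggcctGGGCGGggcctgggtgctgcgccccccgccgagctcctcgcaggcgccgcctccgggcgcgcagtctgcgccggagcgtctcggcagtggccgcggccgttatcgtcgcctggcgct

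Il6st, chr13:112463820-112464119, plus strand: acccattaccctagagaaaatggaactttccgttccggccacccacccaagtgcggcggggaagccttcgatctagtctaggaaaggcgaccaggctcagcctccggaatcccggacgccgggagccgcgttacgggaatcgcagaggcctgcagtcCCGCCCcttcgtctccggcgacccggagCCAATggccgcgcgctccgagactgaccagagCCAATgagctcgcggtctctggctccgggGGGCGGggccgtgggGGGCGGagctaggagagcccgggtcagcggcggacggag

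Egfr, chr11:16751953-16752252, plus strand: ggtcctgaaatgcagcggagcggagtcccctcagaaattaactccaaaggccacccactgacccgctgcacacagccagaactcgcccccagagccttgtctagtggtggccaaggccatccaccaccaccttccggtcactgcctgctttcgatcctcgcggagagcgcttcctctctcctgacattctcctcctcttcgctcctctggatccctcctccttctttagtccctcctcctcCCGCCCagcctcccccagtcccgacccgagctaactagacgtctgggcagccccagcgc

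The Lifr window shown, the first of 2, was 81.3% G and C, the Il6st window 68.3% and the Egfr window 62.3%, against a median of 52.7% over all windows in the table. The Il6st window held GGGCGG at 3 places and CCAAT at 2, this Lifr window held GGGCGG at 2 and the Egfr window at 1. GGGCGG was present in 4 of the 7 windows and in 35.7% of all 32851 windows. CCAAT was present in 4 of the 7 and in 37.4% of all. The STAT-type motif TTCNNNGAA was in 0 of the 7 and in 8.30% of all, and TATAAA in 0 of the 7 and in 13.6% of all. The second Lifr window (chr15:7140292-7140591), not shown, was 53.3% G and C and held GGGCGG at 0 places and CCAAT at 2. These are matches of letters in a short window only.

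The arrays differed in ways that bear on every value below. Values are signal intensities, scaled by the authors so that each array has the same trimmed mean. A level for background was taken from the brightest of 27 Bacillus control probe sets on each array. It was 588 in the KO oocytes and 171 in the WT oocytes, 535 and 560 in KO blastocysts against 322 and 345 in WT blastocysts, and 131 in the KO implantation site against 174 in the WT one. Between 20.4% and 50.8% of all probe sets exceeded it. The 3' to 5' signal ratio of Actb, a sign of RNA length and labelling, was 6.68 in KO oocytes and 33.39 in WT oocytes, and 25.66 and 39.02 in KO blastocysts against 69.27 and 69.1 in WT blastocysts. The part of these differences in the results was not tested. Of the 26 probe sets, 21 exceeded the level on at least 1 array and 3 did so on all 8, one each of Stat3, Egfr and Erbb3. Gja1, the targeted gene, read 375 and 553 in KO blastocysts against 9835 and 574 in WT blastocysts with its probe set of the highest mean (1437992_x_at). By signal, the array labelled blastocyst WT replicate 2 thus read near the KO arrays with this probe set. It read no higher than the brighter KO array with 1415800_at, 1438650_x_at, 1438945_x_at and 1438973_x_at. With 1415801_at it read 855, against 516 and 535 in KO. With 1437992_x_at, 1415801_at and 1438973_x_at this array exceeded its level of 345, while both KO arrays were under theirs. The KO against WT differences of the named members in blastocysts are therefore also given without that array. Gja1 read 150 in KO and 126 in WT oocytes, and 28105 in the KO and 44493 in the WT implantation site. No source used here says whether these probe sets lie in the deleted part of Gja1, so they may not check the labels.

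The labelled stages were checked against marker genes. Of 8 oocyte markers, 6 and 7 exceeded the level in the oocytes, and of 8 trophectoderm markers, 7 or 8 did so in each blastocyst array. Over all probe sets 20.4% exceeded it in KO and 45.4% in WT oocytes, and 23.3% to 34.0% in blastocysts. At the implantation sites, 7 of 8 markers of uterine decidua and stroma exceeded the level in the KO array and 8 of 8 in the WT array. Their summed signal was 74172 in the KO and 61844 in the WT array, against 1432 to 2404 in the blastocysts. In oocytes 2 of these markers exceeded the level in KO and 6 in WT, with summed signals of 2724 and 2832. Of 8 leukocyte markers 7 exceeded the level in the KO and 5 in the WT implantation site, and of 8 markers of uterine epithelium 6 and 5 did so. Over all probe sets 50.7% exceeded it in the KO and 50.8% in the WT implantation site, so counts of 4 or 5 of 8 lie near that share. Trophectoderm markers reached 4 of 8 on either implantation array. Their summed signal there was 5179 in the KO and 3119 in the WT array, against 52533 to 65693 in the blastocysts. Of 8 inner cell mass markers 1 exceeded the level in the KO and 4 in the WT implantation site, with a summed signal of 2832 in the KO and 7083 in the WT array, against 12861 to 22781 in the blastocysts. The implantation site samples thus carry the markers of maternal decidua and stroma, and a difference between them and the blastocyst includes the change of tissue. In bulk RNA, fewer cells of a type and less RNA per cell cannot be told apart.

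Il6st, which encodes the shared signalling chain gp130, had its lowest signal in blastocysts by its probe set with the highest mean. This probe set (1437303_at) read 2726 in KO and 5920 in WT oocytes. It read 57.7 and 430 in KO blastocysts against 635 and 527 in WT blastocysts, and 7326 in the KO and 6107 in the WT implantation site. The 4 blastocyst arrays all lay below both oocyte arrays and both implantation arrays. Both KO blastocyst readings were under their background levels of 535 and 560, so the sizes of the differences below include readings not measured above background. In a limma fit over the 8 arrays with stage and genotype as terms, the blastocyst value fell by 3.73 on the log2 scale relative to oocytes (SE 0.63, adjusted p 0.00031). The implantation site was 4.47 higher than the blastocyst (SE 0.63, adjusted p 0.000141). The implantation site and the oocyte differed by 0.74 (SE 0.73, adjusted p 0.532). Both Il6st calls held in all 14 alternatives, and without the array labelled blastocyst WT replicate 2 the differences were -3.83 and 4.56. Leaving out single arrays gave -4.17 without blastocyst KO replicate 2 to -3.01 without blastocyst KO replicate 1 for the first, and 3.53 without the KO implantation array to 5.41 without the WT one for the second. A second probe set (1452843_at) read 308 in KO and 472 in WT oocytes, 71.3 and 446 in KO against 460 and 847 in WT blastocysts, and 1176 in the KO and 1299 in the WT implantation site. It did not follow the first: the blastocyst and the oocyte differed by -0.19 (adjusted p 0.889), and the implantation site minus blastocyst difference of 1.89 did not pass (adjusted p 0.0608). The other 2 Il6st probe sets stayed under the background level on every array.

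Lifr, the ligand-binding chain, ran differently. Its brightest probe set (1454984_at) read 72.3 in KO and 29.0 in WT oocytes, 273 and 297 in KO against 509 and 486 in WT blastocysts, and 1074 in the KO and 641 in the WT implantation site. The signal was under the background level in oocytes of both genotypes and in KO blastocysts, and above it in WT blastocysts and at both implantation sites. The implantation site was at least 2.62-fold higher than the oocyte (adjusted p 0.000854), and this call held in all 14 alternatives. The blastocyst read 3.04 higher than the oocyte on the log2 scale (SE 0.65, adjusted p 0.00255). This call was lost without the WT oocyte array, where the difference was 2.23. It was kept without the array labelled blastocyst WT replicate 2 (adjusted p 0.0116). The KO oocyte level of 588 lay above every blastocyst reading of Lifr, so no minimum fold is given for this difference. The bounds here and below set the mean log2 signal of the brighter group against the mean background level of the dimmer one. Between the implantation site and the blastocyst the log2 difference was 1.14 (SE 0.65, adjusted p 0.242), which did not pass. The other Lifr probe sets (1425107_a_at and 1450207_at) went against it at the implantation sites, where both were below the background level. They read 15.1 and 10.8 in the KO array and 147 and 119 in the WT array.

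Lif itself showed no stage difference that passed. Its brighter probe set (1421207_at) read 592 in KO and 169 in WT oocytes, 468 and 248 in KO against 380 and 482 in WT blastocysts, and 214 in the KO and 285 in the WT implantation site. The 3 stages overlapped. The implantation site and the blastocyst differed by -0.63 in log2 signal (SE 0.63, adjusted p 0.522). The second Lif probe set was under the background level on all 8 arrays, with 9.1 to 284.

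Stat3, which carries the cytokine signal to the nucleus, was measured above background on all 8 arrays by 1 of its 4 probe sets. This one (1460700_at) read 2327 in KO and 1582 in WT oocytes, 2103 and 1728 in KO against 1067 and 1316 in WT blastocysts, and 1006 in the KO and 934 in the WT implantation site. Both implantation arrays lay below all others. The implantation site minus oocyte difference was -0.99 (SE 0.42, adjusted p 0.12) and did not pass. Another probe set (1459961_a_at) went the other way. It read 58.3 in KO and 83.0 in WT oocytes, 240 and 238 in KO against 70.9 and 328 in WT blastocysts, and 1049 in the KO and 1052 in the WT implantation site. The implantation site was at least 3.32-fold higher than the oocyte by this probe set (adjusted p 0.00355), a call kept in all 13 alternatives that tested it. It was at least 2.46-fold higher than the blastocyst (adjusted p 0.0282), which was lost without the KO implantation array (adjusted p 0.2) and without the WT one (adjusted p 0.159), and without limma's trend (adjusted p 0.0705). The differences of the 2 Stat3 probe sets thus had opposite signs, and their places on the transcript are not used here.

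**Figure D1:**
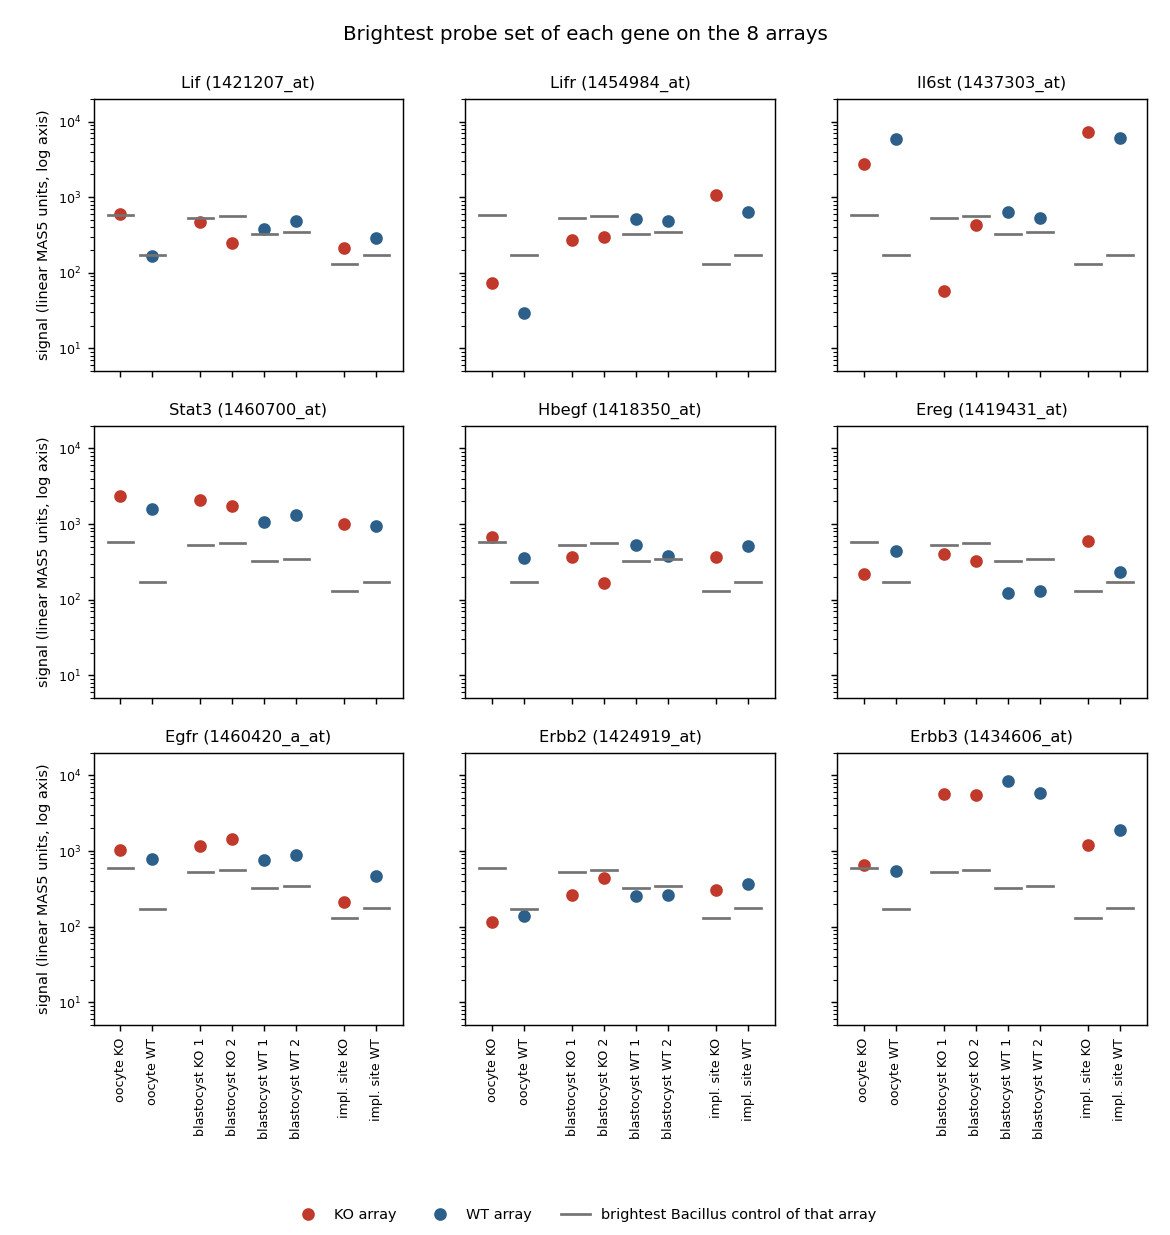
Signal intensity (log axis) of the probe set with the highest mean for each gene on the 8 arrays, with KO left of WT within each stage. Grey bars mark the brightest Bacillus control probe set of each array, which the text uses as a background level. Il6st reads 57.7 to 635 in the 4 blastocyst arrays and 2726 to 7326 in the other 4, and Erbb3 reads highest in blastocysts.

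Among the EGF-family ligands, Hbegf and Ereg gave no stage difference that passed. Hbegf (1418350_at) read 678 in KO and 357 in WT oocytes, 373 and 166 in KO against 534 and 379 in WT blastocysts, and 362 in the KO and 512 in the WT implantation site. KO blastocysts were under the background level on both arrays, and at the other stages and in WT blastocysts every array exceeded it. The second Hbegf probe set, with 22.8 to 304, exceeded the level only at the implantation sites, with 180 in KO and 244 in WT. Ereg, epiregulin, has a single probe set (1419431_at). It read 218 in KO and 438 in WT oocytes, 401 and 329 in KO against 124 and 132 in WT blastocysts, and 603 in the KO and 236 in the WT implantation site. All 4 blastocyst arrays were under the background level for Ereg. The implantation site minus blastocyst differences were 0.36 for Hbegf (SE 0.59, adjusted p 0.705) and 0.80 for Ereg (SE 0.67, adjusted p 0.434).

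Egfr, the receptor of these ligands, was read by 7 probe sets that split by stage. The probe set with the highest mean (1460420_a_at) read 1032 in KO and 784 in WT oocytes, 1180 and 1425 in KO against 771 and 882 in WT blastocysts, and 215 in the KO and 471 in the WT implantation site. It fell by 1.70 on the log2 scale at the implantation site relative to the blastocyst (SE 0.47, adjusted p 0.019). A probe set that read the other way (1435888_at) had 121 in KO and 88.9 in WT oocytes, 59.2 and 8.9 in KO against 68.8 and 74.3 in WT blastocysts, and 2188 in the KO and 1910 in the WT implantation site. It was under the background level on the 6 arrays of oocytes and blastocysts and well over it on both implantation arrays. By this probe set the implantation site was at least 4.79-fold higher than the blastocyst (adjusted p 0.000645). Relative to the oocyte the bound was 6.45-fold (adjusted p 0.0113). Another rising probe set (1424932_at) read 154 in KO and 291 in WT oocytes, 34.5 and 16.6 in KO against 39.9 and 50.3 in WT blastocysts, and 576 in the KO and 847 in the WT implantation site. It was at least 1.64-fold higher at the implantation site than in blastocysts (adjusted p 0.00246). Another falling one (1454313_at) was 2.36 lower on the log2 scale at the implantation site than in blastocysts (SE 0.67, adjusted p 0.021). Its blastocyst signals were 354 and 621 for KO, and 334 and 252 for WT. The KO and WT implantation sites gave 103 and 50, both under the background level. Blastocyst KO replicate 1 and WT replicate 2 also lay under their levels of 535 and 345, so no minimum fold is given.

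The Egfr calls between implantation site and blastocyst rested on few arrays. Without the KO implantation array none of the 4 passed, with differences of -0.85 for 1460420_a_at, 5.09 for 1435888_at, 4.24 for 1424932_at and -2.55 for 1454313_at. The directions were the same. The adjusted p-values were then 0.389, 0.0529, 0.0648 and 0.103 in the same order. The 2 falling probe sets also lost their calls when all arrays were set to a common median (adjusted p 0.0658 for 1460420_a_at and 0.0531 for 1454313_at), and without blastocyst KO replicate 2 (0.0619 and 0.0855). Probe set 1454313_at lost it with quantile normalization (0.0616) and without the WT implantation array (0.0818) too, and 1460420_a_at without limma's trend (0.105). The rise of 1435888_at over the oocyte was lost without the WT oocyte array (0.119) or the KO implantation array (0.16). The mouse Egfr gene is known to give a full-length receptor and shorter transcripts that encode only the outer part. Which transcripts each probe set detects was not analysed here.

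**Figure D2:**
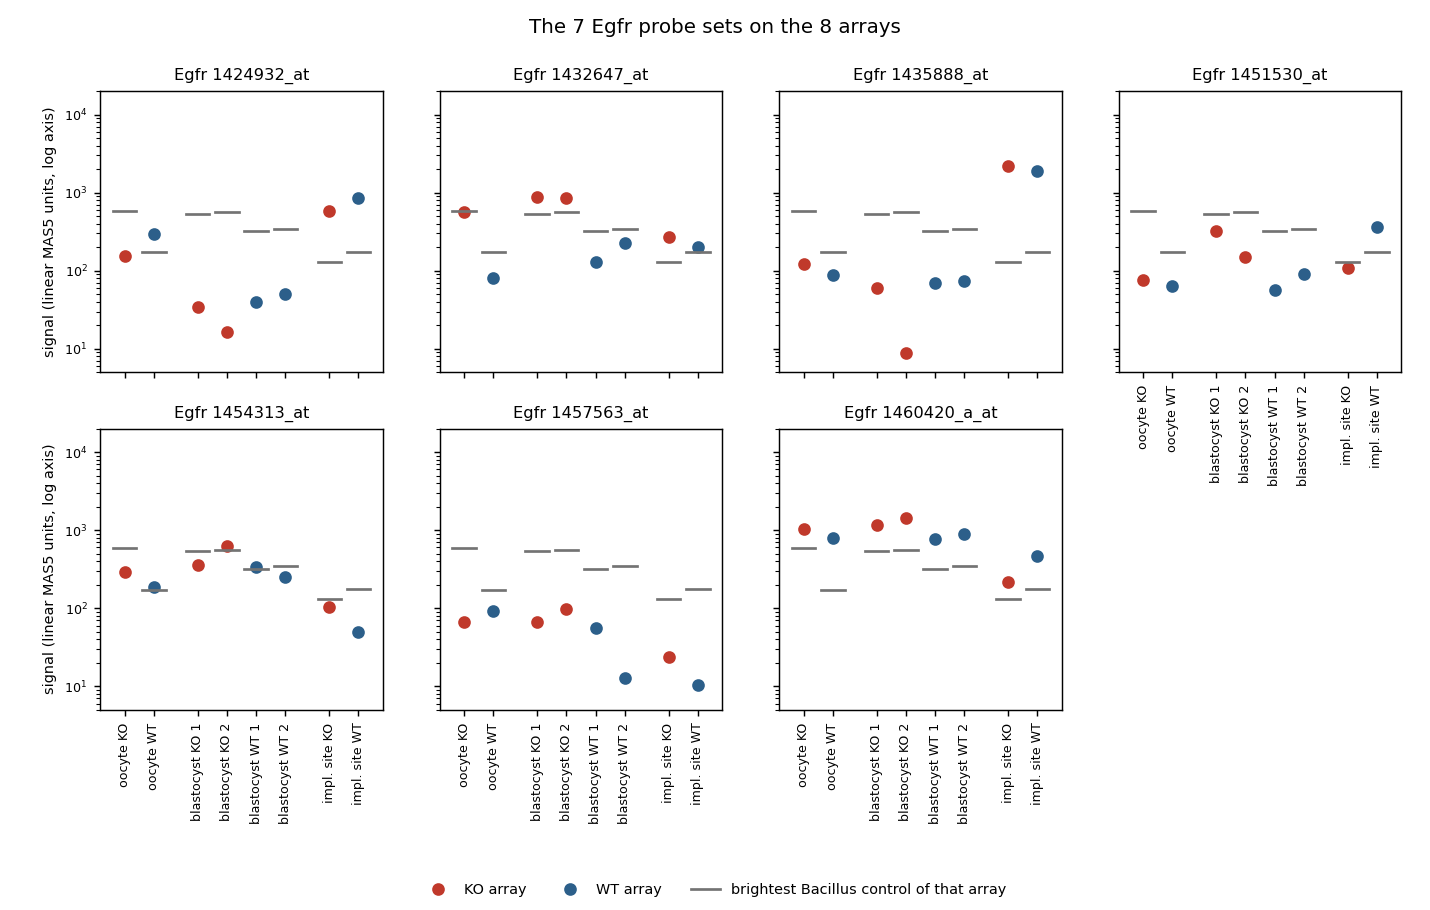
Signal intensity (log axis) of the 7 Egfr probe sets on the 8 arrays, with KO left of WT within each stage and grey bars at the background level of each array. Probe sets 1435888_at and 1424932_at read highest at the 2 implantation sites, while 1460420_a_at reads lowest there.

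Of the co-receptors, Erbb3 read highest in blastocysts. Its main probe set (1434606_at) read 658 in KO and 537 in WT oocytes, 5630 and 5548 in KO against 8407 and 5894 in WT blastocysts, and 1201 in the KO and 1881 in the WT implantation site. The stages did not overlap, and the order was blastocyst, implantation site, oocyte. The blastocyst was 3.40 higher than the oocyte on the log2 scale (SE 0.35, adjusted p 1.96e-06). The implantation site fell by 2.06 relative to the blastocyst (SE 0.35, adjusted p 0.00061), and both calls held in all 14 alternatives. Without the array labelled blastocyst WT replicate 2 they were 3.49 and -2.15. The implantation site was 1.34 higher than the oocyte (SE 0.40, adjusted p 0.0272), which was lost without the WT oocyte array (adjusted p 0.183) or the WT implantation array (adjusted p 0.135), and without limma's trend (adjusted p 0.188). The second Erbb3 probe set exceeded the level only in the KO oocytes, with 590.

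Erbb2, the ligand-less partner, was read by 1 probe set (1424919_at) near or under the background level. It had 115 in KO and 138 in WT oocytes, 266 and 441 in KO against 253 and 262 in WT blastocysts, and 308 in the KO and 366 in the WT implantation site. Both implantation arrays exceeded the level and the other 6 arrays did not. No stage difference of Erbb2 passed, with adjusted p between 0.201 and 0.875.

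Counted over all 26 probe sets, 7 passed between implantation site and blastocyst, 4 higher and 3 lower. Over all 45037 probe sets tested, 7.80% were called higher and 11.1% lower, 18.9% in all. The median log2 difference was 0.18 over the members and -0.41 over all probe sets. With a common median the member calls were 5 higher and 1 lower, and without the KO implantation array 2 passed, 1 in each direction. Between blastocyst and oocyte 4 members passed, 2 in each direction, against 12.3% higher, 8.79% lower and 21.1% in all of the probe sets tested. One of these, Egfr 1424932_at, was lower in blastocysts (adjusted p 0.0392) but was lost without any of 7 single arrays, and it gives no fold because the blastocyst level of background was above the oocyte signal. Without the WT oocyte array 2 members passed. With quantile normalization 3 were higher and 2 lower. Between implantation site and oocyte 4 members passed, all higher, against 9.86% higher, 8.29% lower and 18.2% in all, and without the WT oocyte array 2 passed. At an unadjusted p under 0.05 the members numbered 9, 5 and 9 of 26, against 32.7%, 31.1% and 30.8% of all probe sets. Without the array labelled blastocyst WT replicate 2, the 7 calls between implantation site and blastocyst all passed, with adjusted p up to 0.0409. The comparisons share arrays and are not independent of each other.

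**Figure D3:**
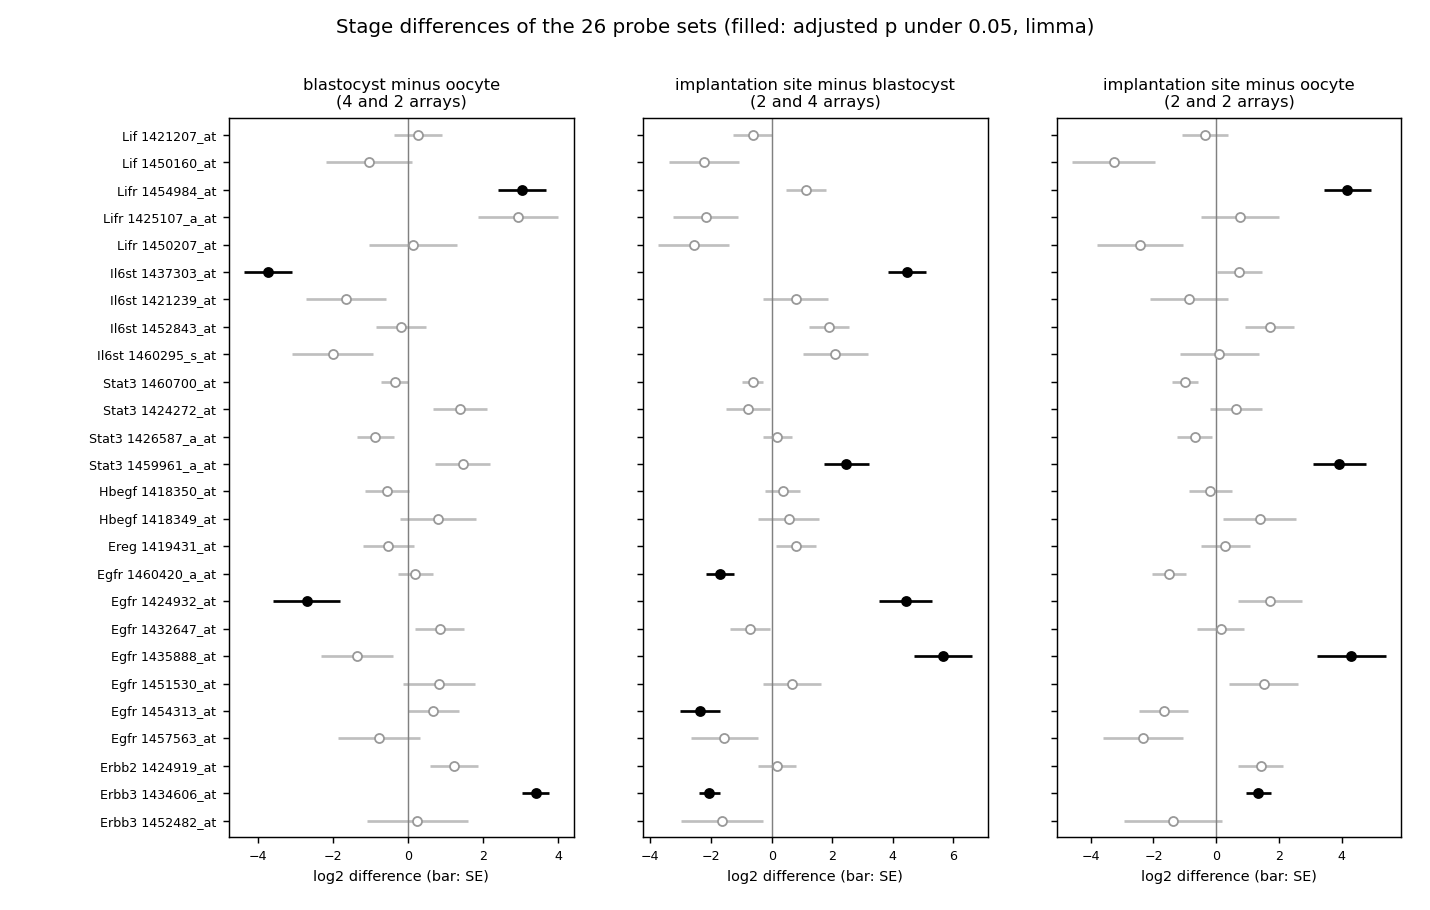
Log2 difference between stages for the 26 probe sets, in the 3 comparisons of stages, with bars for the standard error of the limma fit over 8 arrays. Filled points passed an adjusted p under 0.05, which 4 members did for blastocyst minus oocyte, 7 for implantation site minus blastocyst and 4 for implantation site minus oocyte.

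In blastocysts, the stage with replicate arrays, 0 of 26 probe sets passed between KO and WT, and 0 without the array labelled blastocyst WT replicate 2. Over all probe sets limma called 0.0200%, which were 9 higher and 0 lower, and without that array it called 381 probe sets. The background level and the Actb ratio differed between the genotypes in blastocysts, as given above, and their part in the differences was not tested. At an unadjusted p under 0.05 there were 3 members of 26, against 11.7% of all probe sets. The KO and WT arrays did not overlap for 17 of 26 members, 9 higher and 8 lower in KO, against 44.1% of all probe sets. The median log2 difference was 0.01 over the members and 0.14 over all. Nothing in the labels says that the arrays of a genotype came from separate animals or cultures, so these p-values measure only the spread between the arrays.

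The member with the smallest p in blastocysts was a further Egfr probe set (1432647_at), which read 889 and 842 in KO against 129 and 224 in WT blastocysts. KO was at least 2.59-fold higher, with a log2 difference of 2.35 (SE 0.53), an unadjusted p of 0.00151 and an adjusted p of 0.201 by limma. Without the array labelled blastocyst WT replicate 2 the difference was 2.75 (adjusted p 0.0717). At the other stages it read 558 in KO and 81.2 in WT oocytes, both under the level, and 271 in the KO and 203 in the WT implantation site. The main Egfr probe set read higher in KO blastocysts by 0.65 (SE 0.36, adjusted p 0.51), and by 0.75 without that array. A Stat3 probe set (1424272_at) read 562 and 813 in KO against 114 and 420 in WT blastocysts. Its difference was 1.63 (SE 0.67, adjusted p 0.406), and 2.57 without the same array (adjusted p 0.109). The main Stat3 probe set differed by 0.69 (SE 0.34, adjusted p 0.465), and by 0.84 without it (adjusted p 0.269). Ereg had an unadjusted p of 0.0492 and an adjusted p of 0.427, with both genotypes under the background level, and an adjusted p of 0.294 without the same array.

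The gp130 gene read lower in KO blastocysts without passing. Both KO arrays were under the background level for both probe sets. The WT mean was 1.06-fold over the mean KO level by the main one and 1.14-fold by the other. WT readings of 527 by the main one and 460 by the other lay under both KO levels, so no minimum is read from these. The main Il6st probe set differed by -1.88 (SE 0.87, adjusted p 0.442), and -2.01 without the array labelled blastocyst WT replicate 2. The second one differed by -1.81 (SE 0.83, adjusted p 0.439), and -1.37 without that array. One KO array carried most of this. Without blastocyst KO replicate 1, the differences were -0.43 for the main probe set and -0.49 for the second. Lifr differed by -0.81 (SE 0.50, adjusted p 0.559), with KO under the background level. Hbegf differed by -0.85 (SE 0.61, adjusted p 0.609), Erbb3 by -0.33 (SE 0.30, adjusted p 0.695), Erbb2 by 0.41 (SE 0.59, adjusted p 0.816) and Lif by -0.33 (SE 0.55, adjusted p 0.843). Without the array labelled blastocyst WT replicate 2, these were -0.84 for Lifr, -1.10 for Hbegf, -0.59 for Erbb3, 0.44 for Erbb2 and -0.16 for Lif. None passed.

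Over the 3 stages together, 0 of 26 members passed between KO and WT, as did 0 of all 45037 probe sets by limma. At an unadjusted p under 0.05 there were 2 members, against 6.28% of all, which were 1939 higher and 891 lower. The 2 were Egfr 1432647_at, 1.97 higher in KO (SE 0.53, adjusted p 0.794), and Il6st 1437303_at, with a difference of -1.15 (SE 0.51, adjusted p 0.794). For Egfr 1432647_at every KO array read above every WT array, while for Il6st the genotypes overlapped.

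In oocytes and at implantation sites each genotype has 1 array, so the differences have no replicate check. In oocytes KO exceeded WT by 2-fold or more for 9 members, and 2 read lower in KO by that much, against 39.1% higher, 13.1% lower and 52.2% in all. With quantile normalization or a common median the split turned to 6 higher and 7 lower. The median of all probe sets moved with it, being 0.52 as deposited, 0.01 after quantile normalization and -0.02 with a common median. Of the 9, all but Lif 1421207_at and Erbb3 1452482_at were under the background level in both genotypes. Lif read 592 and the Erbb3 probe set 590 in KO oocytes, just over the level of 588 on that array. Set against the WT level of 171 these give 3.47-fold and 3.46-fold. Both largely reflect the gap between the 2 background levels, so no minimum difference is read from them. Il6st, measured in both genotypes, had a log2 difference of -1.12.

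At the implantation sites KO exceeded WT by 2-fold or more for 5 members and read lower by that much for 4, against 13.0% higher, 26.3% lower and 39.2% in all. The split was 6 and 3 after quantile normalization and 7 and 3 with a common median, and the median of all probe sets was -0.24, 0.01 and 0.17 in the same order. With a pseudocount of 50, 5 members were 2-fold apart. Ereg was the higher one measured in both genotypes, with a log2 difference of 1.35, and the main Egfr probe set was the lower one, with -1.13. Egfr 1451530_at was at least 2.77-fold lower in KO. The other 6 were under the background level on both arrays. The main Il6st, Stat3, Lifr and Lif probe sets differed by 0.26, 0.11, 0.75 and -0.41. Both samples carry the markers of maternal decidua given above, and their embryo markers differed. The summed signal was 2832 in KO and 7083 in WT for inner cell mass, and 5179 and 3119 for trophectoderm. The part of these in the KO and WT differences was not tested.

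**Figure D4:**
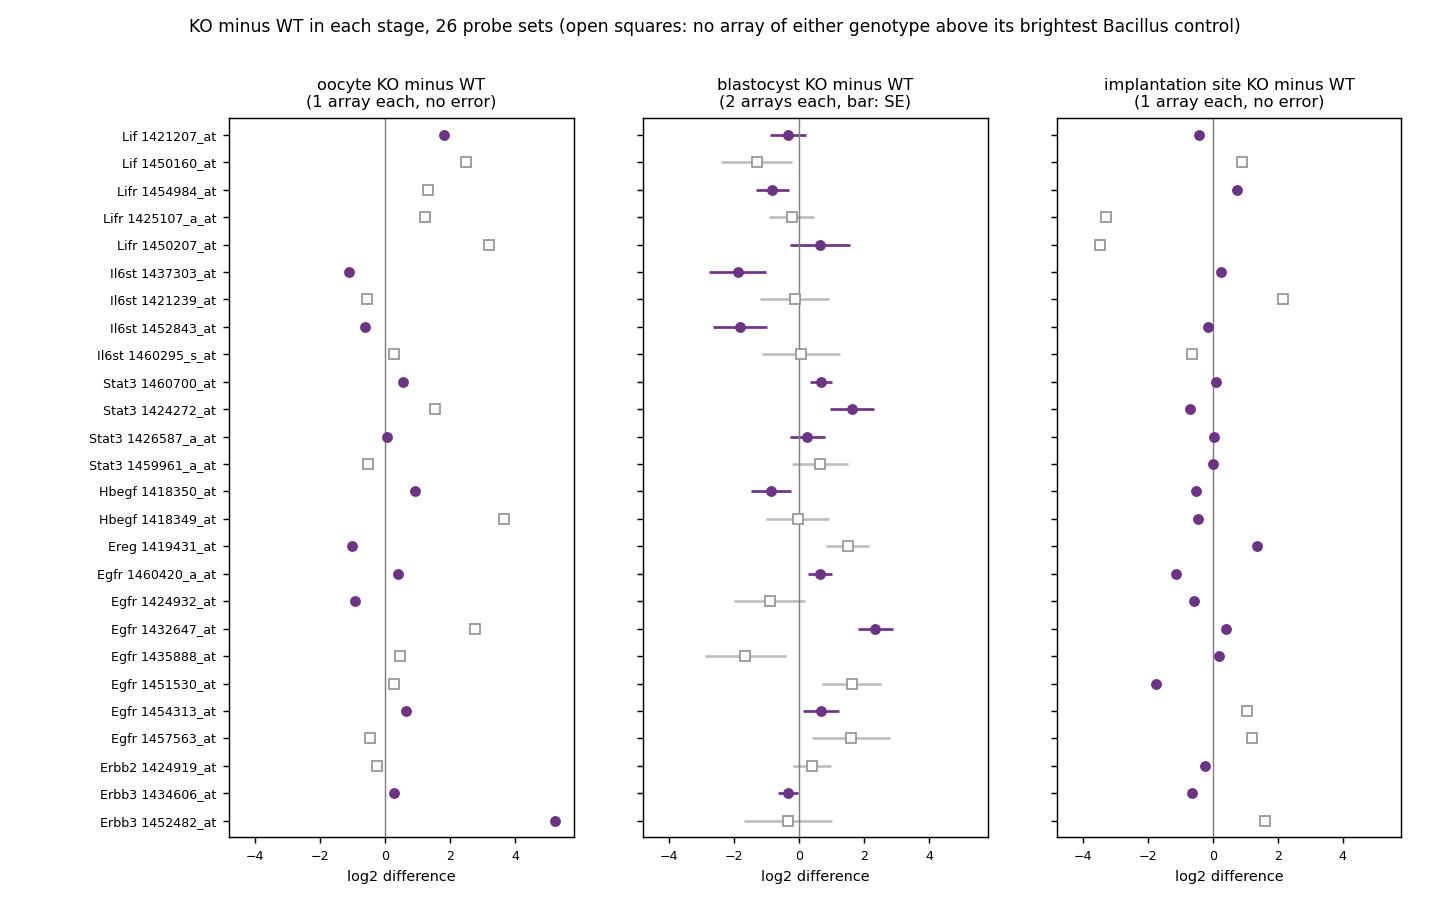
Log2 difference of KO minus WT for the 26 probe sets in oocytes, blastocysts and implantation sites. Blastocyst points carry the standard error of the limma fit and none passed, and the oocyte and implantation points compare 1 array with 1 array.

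The other genes of the pathways were taken from lists of 24 cytokine and JAK-STAT genes, 24 EGF and ErbB genes and 19 genes known from uterine implantation. Of the 21 cytokine genes measured, 4 were higher and 1 lower at the implantation site than in blastocysts, with a list median of -0.92 against -0.49 over all genes. Over all probe sets 7.80% were called higher and 11.1% lower in this comparison. Here and below such shares count every probe set, while the lists count 1 probe set per gene. With 1 probe set per gene, the share of all genes called in either direction was larger in each comparison of stages. Osmr, the receptor chain that pairs with gp130 for oncostatin M, had a signal of 3590 in the KO implantation site and 1955 in the WT one, against 174 and 120 in KO and 71.6 and 16.8 in WT blastocysts. Relative to blastocysts it was at least 6.20-fold higher (adjusted p 0.000527). Relative to oocytes the bound was 8.36-fold (adjusted p 0.00148), and both calls held in every alternative. Cish, a STAT-induced inhibitor, was the 1 that fell, by 1.83 (SE 0.42, adjusted p 0.00584). Jak1, a kinase that gp130 binds, was 1.60 higher (SE 0.40, adjusted p 0.0102). Cish and Jak1, among others, lost their calls without the KO implantation array, and 1 gene of the list then passed.

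Socs3, the STAT3 target that blocks gp130 signalling, was lowest in oocytes. It read 246 in KO and 404 in WT oocytes, 3331 and 2220 in KO against 4035 and 2625 in WT blastocysts, and 9625 in the KO and 5341 in the WT implantation site. It was 3.24 higher in blastocysts than in oocytes (SE 0.39, adjusted p 1.24e-05) and 4.51 higher at the implantation site than in oocytes (SE 0.45, adjusted p 5.11e-06). Between blastocyst and oocyte 5 cytokine genes were higher and 4 lower, and between implantation site and oocyte 3 were higher and 2 lower. Over all probe sets these shares were 12.3% higher and 8.79% lower, and 9.86% higher and 8.29% lower. Without the WT oocyte array these were 2 higher and 3 lower, and 2 higher and 1 lower, and without the KO implantation array the last count was also 2 and 1.

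Of the 24 EGF and ErbB genes, 3 were higher and 0 lower at the implantation site than in blastocysts, with a list median of -0.37 against -0.49 over all genes and the same shares of all probe sets as for the cytokine genes, 7.80% higher and 11.1% lower. They were Errfi1, a feedback inhibitor of the EGF receptor, and the membrane proteases Adam9 and Adam10, which can release ligands such as HB-EGF or EGF. Errfi1 read 19824 in KO and 33998 in WT oocytes, 2796 and 2173 in KO against 8683 and 6806 in WT blastocysts, and 22279 in the KO and 22342 in the WT implantation site. It was 2.36 higher at the implantation site than in blastocysts (SE 0.36, adjusted p 0.000296), and in blastocysts it fell by 2.58 relative to oocytes (SE 0.36, adjusted p 5.41e-05). Like the main Il6st probe set, but not the second one, it was lowest in the blastocyst arrays. Between KO and WT blastocysts it differed by -1.64 without overlap (SE 0.31), but the adjusted p was 0.149. Without the array labelled blastocyst WT replicate 2 this difference was -1.82 (adjusted p 0.0545). Adam9 was 2.00 higher (SE 0.33, adjusted p 0.000577) and Adam10 1.5 higher (SE 0.35, adjusted p 0.0064) at the implantation site, and Adam10 lost its call without the KO implantation array (adjusted p 0.202). Without limma's trend both lost their calls (adjusted p 0.0509 for Adam9 and 0.12 for Adam10). The count over this list became 4 higher and 1 lower without the KO oocyte array. It became 3 higher and 2 lower without blastocyst WT replicate 1 or without the WT implantation array. The number called was 2 to 5 on leaving out single arrays, with 2 without the KO implantation array, and 1 without limma's trend.

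Egf itself read 2661 in KO and 2812 in WT oocytes, 482 and 488 in KO against 236 and 204 in WT blastocysts, and 35.3 in the KO and 219 in the WT implantation site. It fell by 4.96 at the implantation site relative to the oocyte (SE 0.80, adjusted p 0.0003). The KO implantation value was under the background level of 131, and the difference was -3.28 without that array and -6.65 without the WT implantation array. Cbl, the ubiquitin ligase that marks active EGF receptor for breakdown, was under the background level in oocytes by its probe set of highest mean. This probe set read 171 in KO and 29.2 in WT oocytes. Relative to oocytes it was at least 7.03-fold higher in blastocysts (adjusted p 4.05e-06), and the bound for the implantation site was 4.31-fold (adjusted p 0.000138). The other Cbl probe sets exceeded the level in WT oocytes, with 307 and 515, but not in KO oocytes, with 178 and 291. The first of these was under the level at the implantation sites, with 18.8 in KO and 21.7 in WT. The second exceeded it there, with 1124 in KO and 899 in WT. Their stage differences are not given here. Of this list 4 were higher and 5 lower between blastocyst and oocyte, and 6 higher and 3 lower between implantation site and oocyte. Over all probe sets the shares were 12.3% and 8.79%, and 9.86% and 8.29%. The share called in either direction was larger with 1 probe set per gene, which is how the list is counted. In the last comparison 3 were higher and 1 lower without the WT oocyte array, and 3 and 2 without the KO implantation array.

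Of the genes known from uterine implantation, 10 of 19 were higher and 3 lower at the implantation site than in blastocysts, with a list median of 2.78 against -0.49 over all genes and 7.80% higher and 11.1% lower over all probe sets. Hand2, a stromal regulator, Pgr and Esr1, the progesterone and oestrogen receptors, and Bmp2, a growth factor of decidualisation, were at least 40.3-fold, 67.8-fold, 20.0-fold and 24.7-fold higher, with adjusted p between 4.94e-08 and 2.76e-05. Hand2, Pgr and Bmp2 are, among others, also in the list of decidual markers above, so this count and the marker count are not independent. Between KO and WT blastocysts 0 genes of the 3 lists passed.

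The genes whose pattern over the 8 arrays was most like each member were named by Pearson's r of log2 signal among 12660 genes. For Erbb3 these were Ddx20 (0.997), Gsta4 (0.995) and Myl12b (0.995), for Il6st Lrrcc1 (0.985), Zfp469 (0.979) and Aldh5a1 (0.974), and for Lifr Dis3 (0.989), Rexo4 (0.989) and Lamtor1 (0.986). For the main Egfr probe set they were Nrsn2 (0.993), Gpalpp1 (0.989) and Nr2c2ap (0.984), for Stat3 Bcas1 (0.963), Rfx2 (0.959) and Tob2 (0.956), and for Lif Trpv6 (0.983), Zfp160 (0.949) and Cldn3 (0.942). Hbegf was most like Zbtb11os1 (0.982), Ereg like Entr1 (0.899) and Erbb2 like Fkbp1b (0.987). The 8 points share arrays and the 3 stages, so these values describe this set of arrays only.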

How the data were processed

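Signal intensity of 45101 probe sets on 8 mouse arrays was taken from the authors' deposited table, a linear scale made with MAS5 per the submitters' processing notes (no version stated). On each array the values had a 2% trimmed mean of 500. From this log2 signal was computed, with no filter. Control probe sets (64) were left out, which left 45037 tested. Probe sets were named from the platform annotation, with symbols updated from RefSeq (GRCm38.p6): 34945 had 1 gene, 932 several and 9160 none.

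Background was read as the brightest of 27 Bacillus control probe sets per array, which assumes that no Bacillus RNA was added. KO and WT blastocysts were compared within 4 arrays, and stages and genotype over 8 arrays, with limma 3.58.1 in R 4.3.3 (lmFit, eBayes with trend, two-sided, Benjamini-Hochberg over all probe sets, adjusted p under 0.05). Single-array comparisons were described by log2 difference and a 2-fold threshold. The fits were tested on simulated data. Plots used matplotlib 3.10.9.

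Arrays have no read depth, so precision is limited by how many there are. The members and gene lists were chosen with earlier results of these data known. Each gene is given by its probe set of highest mean. For the pathway genes, other probe sets are given only for Cbl and Jak1. From each pathway list up to 4 genes of largest difference past the threshold could be named, and as genes most alike the 3 of highest Pearson r. Lists came to 131 genes, of which 124 had a probe set. The blastocyst arrays were taken as unpaired. Over all probe sets, deviations between replicate numbers in KO and in WT did not correlate (0.00509). This correlation cannot decide whether the numbers pair the arrays. Alternatives were quantile normalization, a common median, a pseudocount of 50, the upper 50% of probe sets, 1 probe set per gene, limma without trend, a replicate block and leaving out each array.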

Additional observations from a re-analysis of the deposited data

Results flagged for a closer look

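Ereg, epiregulin, had differences of opposite sign between genotypes at the 2 stages with 1 array each. The log2 difference of KO minus WT was -1.01 in oocytes, with 218 in KO and 438 in WT, and 1.35 at the implantation site, with 603 in KO and 236 in WT. The background level of the KO oocyte array, 588, lay above both oocyte values, so the direction in oocytes was not measured. The difference between the 2 stages was not tested, since neither has a replicate array of either genotype.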

How the results depend on the processing

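Of the tested differences named in the report and recomputed, 1 changed sign: Lif 1421207_at between KO and WT blastocysts was 0.13 without KO replicate 2, over a leave-one-out range of -0.79 to 0.13. Members not named in that comparison changed sign too, among them Erbb3 1452482_at (-2.42 to 1.78) and Hbegf 1418349_at (-1.17 to 1.09). Member counts moved as follows. Between implantation site and blastocyst 7 calls became 3 with 1 probe set per gene, which tests fewer probe sets, and leaving out single arrays gave 2 to 7. Between blastocyst and oocyte 4 became 2 to 4 on leaving out arrays. Between implantation site and oocyte 4 became 2 with 1 probe set per gene and 2 to 5 on leaving out arrays. At implantation sites 9 members 2-fold apart became 5 with a pseudocount of 50, and over all probe sets 17676 became 9417. The replicate block gave 1 blastocyst member, Egfr 1432647_at (adjusted p 0.0398), and brought Errfi1 past the threshold too (adjusted p 0.0102). Whether the replicate numbers pair the arrays could not be decided. Over all probe sets, KO against WT blastocysts gave 9 calls, and 54 with quantile normalization, 14 with a common median, 19 with the pseudocount, 17 with 1 probe set per gene, 0 without trend, 629 with the replicate block and 1 to 381 on leaving out arrays, the most without the array labelled WT replicate 2. KO against WT over the stages gave 0, and 0 to 10 on leaving out arrays. The stage counts over all probe sets were 8502, 9484 and 8176 for implantation site against blastocyst, blastocyst against oocyte and implantation site against oocyte. With 1 probe set per gene they were 4658, 5452 and 4619, of 18193 genes. Without trend the first was 4559 and the last 4751, and leaving out arrays gave 2957 to 9296, 5823 to 10133 and 4869 to 8234. A common median turned the split of the first to 4454 higher and 3469 lower, from 3512 and 4990, and moved the median of all probe sets to -0.05 in place of -0.41. Why these counts moved was not tested beyond the fewer probe sets or arrays each setting holds. Signal under background limits 5 of the 26 members on every array.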
